A study of Mus musculus with 106 samples.

Results

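The 44 genes described here encode the machinery that copies DNA: the proteins that license replication origins, the helicase and its activators, the polymerases and primase, the sliding clamp and its loader, the single-strand binding complex, the flap nuclease and ligase of the lagging strand, and both subunits of the classical ribonucleotide reductase. They were taken from a fixed list, each with at least 1 probe set assigned to a single gene symbol, and are 44 of the 18193 genes measured. The study profiled single mouse cells along the route by which epiblast gives rise to primordial germ cells (PGCs), precursors of egg and sperm, with 1 cell on each of 106 arrays. All embryos were of the C57BL/6 strain. Wild-type cells of the lineage were 8 posterior epiblast cells of pre-streak (PS) embryos chosen for Oct4 and T, 7 Early/Mid-Streak (E/MS) and 17 Late-Streak/0-Bud (LS/0B) precursors chosen for Blimp1 and Oct4, and 8 PGCs each of the Early/Mid-Bud (E/MB) stage, the early head fold (EHF) stage and E8.25, chosen for Blimp1 and stella. The Blimp1 (-/-) cells, 20 at LS/0B and 12 at E/MB, were chosen for Oct4 and for the transcript of the null allele, which encodes no working protein. The wild-type neighbours were 4 cells at E/MB and 4 at EHF chosen for Blimp1, Oct4 and Hoxb1, called Blimp1+ Hoxb1+ cells below, and 10 posterior mesoderm cells from the base of the allantois at E/MB that were Oct4+ and Hoxb1+ but Blimp1-. For the 4 EHF cells the title says E/MB while the source name and description say EHF, and they are taken as EHF.

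Replication starts when the origin recognition complex, Cdc6 and Cdt1 load the Mcm2-7 helicase onto DNA in G1. In S phase the Cdc7-Dbf4 kinase and cyclin-dependent kinases turn the loaded rings into moving forks by adding Cdc45 and the GINS complex, and the polymerases then copy both strands behind the helicase. Many of these genes are transcribed under E2F control at the G1/S boundary, and mouse PGCs are known to pause in G2 during their migration.

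Values are log2 of the authors' array signal, with low values raised to a floor of 6.13, and detection in a cell meant a signal over the 95th percentile of that cell's background probe sets. Labels name no embryo, so each group counted as 1 sample: SDs are over cells, no test was run, and a difference of at least 1 log2 unit is a statement of size only. The gating genes followed the labels in part. Dppa3 (stella) was detected in 8 of 8 PGCs at each of the 3 stages, and Hoxb1 in every Blimp1+ Hoxb1+ and mesoderm cell. Prdm1, the gene of Blimp1, was detected in 16 of 17 LS/0B precursors, 3 of 4 EHF Blimp1+ Hoxb1+ cells and 0 of 10 mesoderm cells. In knockout cells Prdm1 averaged 7.41 at LS/0B (detected in 12 of 20 cells) and 7.96 at E/MB (9 of 12), and since these cells were picked for the null transcript this does not check the deletion. Xist, transcribed from the inactive X chromosome of female cells, was detected in 8 of 8 PS epiblast cells, 8 of 17 LS/0B precursors, 5 of 8 EHF PGCs and 1 of 4 cells in each Blimp1+ Hoxb1+ group, and in 0 cells of the other groups. The arrays also fell into sets by the signal of a few probe sets, though no label names a batch. Probe sets for Ppp2cb and Naa20, chosen after their values were seen, were detected in 46 of 50 knockout, Blimp1+ Hoxb1+ and mesoderm cells, against 9 and 16 of 56 wild-type epiblast, precursor and PGC cells. Abca4 ran the other way, with 7 of 50 against 56 of 56, and 6 of the 7 were mesoderm cells (6 of 10). Array set and group therefore cannot be told apart in comparisons across these blocks of arrays, nor between knockout cells and mesoderm, and the marking probe sets also varied within the blocks. The mesoderm arrays had the highest hybridisation controls, averaging 11.23, against group means of 9.57 to 10.16 elsewhere.

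All 44 genes were broadly detected, that is in at least 50% of the 106 cells, and 21 of them (47.7%) were detected in every cell, against 22.4% of the 7250 broadly detected genes. The highest and lowest group means of a gene lay a median of 1.22 log2 units apart over the 44 genes and 1.44 over all broadly detected genes. For 8 of 44 (18.2%) they lay at least 2 units apart, against 22.4% of broadly detected genes. For 25 of 44 (56.8%) they lay at least 1 unit apart, against 74.6% of broadly detected genes. The replication genes were thus no more variable between groups than other detected genes. Over 13 comparisons, 22 genes differed by 1 log2 unit at least once and 22 never did. The share of all genes that did so at least once was not computed, so these counts cannot be called high or low. Shares over all genes are given for each comparison below. Of the 65 differences of that size, 34 belonged to the 5 genes with the most of them, Gins2, Rpa3, Cdc6, Pold2 and Rrm2.

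**Figure D1:**
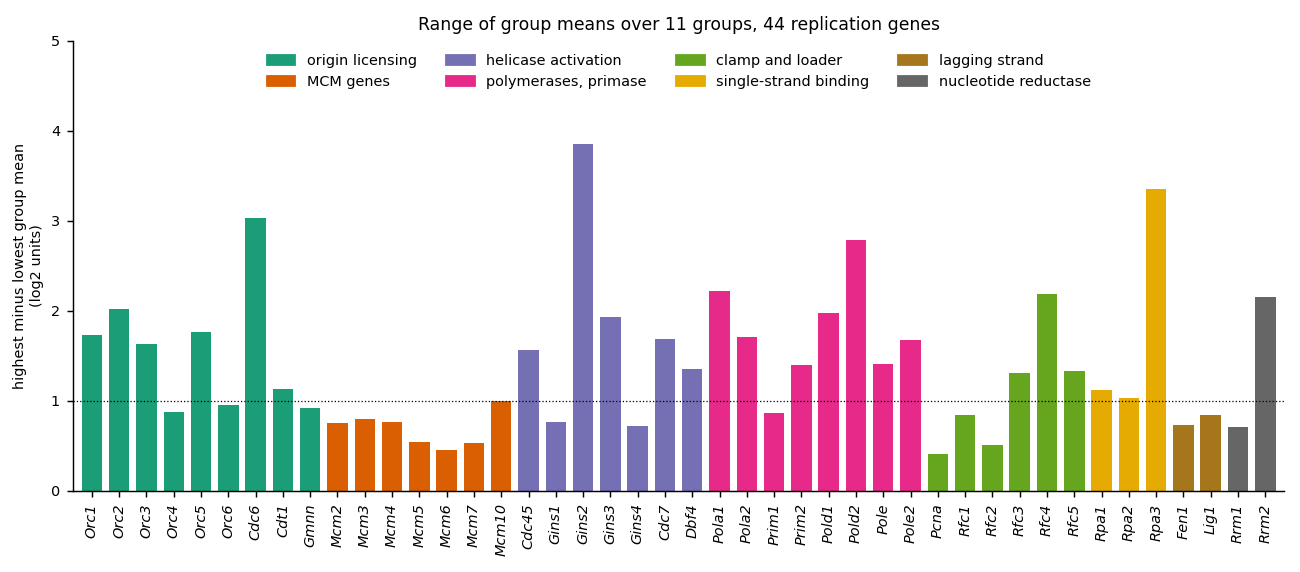
Each bar is 1 replication gene and gives its highest minus its lowest group mean over the 11 groups (log2 units), coloured by role, with a dotted line at 1. Gins2 stands at 3.86, Rpa3 at 3.35 and Cdc6 at 3.03, while all 7 Mcm genes, Pcna, Fen1 and Lig1 lie under 1. Second probe sets of Mcm4 (9.99 to 11.12) and Fen1 (9.57 to 10.84), not drawn, had wider ranges of group means.

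Because upstream sequence bears on genes that move together, the bases before the annotated start of each gene were searched for letters of an E2F-type site (TTTCCCGC, TTTCGCGC, TTTGCCGC or TTTGGCGC) and of a CCAAT box, on both strands. RefSeq promoter entries (GRCm38.p6) were found for 36 of the 44 genes. Within 250 bases before the start, an E2F-type match stood in 9 of the 36 genes (25%) and in 2.16% of all 27025 genes of the table. CCAAT stood in 23 of 36 (63.9%), against 37.5% of all. Genes that stayed even and genes that moved both held matches. Mcm5, Mcm6 and Mcm7 (even) and Cdc6, Gins3 and Pola1 (uneven) had E2F-type letters, whereas Pcna, Rrm2, Pold2 and Rpa3 had CCAAT alone. The sequences shown are those of the genes with the widest ranges that have an entry, and of Mcm6, the even gene with most E2F-type matches. Capitals mark the matches, and in Mcm6 matches on the 2 strands overlap. Only 30 bases around the E2F-type match are given for Cdc6 and Pola1, whose entry starts inside the span of the annotated gene.
Rpa3, chr6:8259142-8259291, minus strand: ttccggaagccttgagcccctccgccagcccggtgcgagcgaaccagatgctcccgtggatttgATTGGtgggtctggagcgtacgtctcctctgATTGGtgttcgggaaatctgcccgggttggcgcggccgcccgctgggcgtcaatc
Pold2, chr11:5878257-5878406, minus strand: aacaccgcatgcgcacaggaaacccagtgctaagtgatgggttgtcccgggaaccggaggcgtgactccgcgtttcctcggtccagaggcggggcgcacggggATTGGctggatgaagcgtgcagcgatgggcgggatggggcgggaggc
Mcm6, chr1:128359706-128359855, minus strand: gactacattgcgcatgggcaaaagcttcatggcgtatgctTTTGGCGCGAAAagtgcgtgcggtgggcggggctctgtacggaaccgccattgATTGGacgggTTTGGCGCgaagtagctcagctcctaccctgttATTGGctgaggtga
Cdc6, chr11:98908002-98908031, plus strand: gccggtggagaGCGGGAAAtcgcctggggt
Pola1, chrX:93632275-93632304, minus strand: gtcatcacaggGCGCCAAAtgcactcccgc
A match describes letters in this window and is not a site of binding.

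By role, the helicase genes had the smallest median range of group means, 0.75 log2 units, close to 0.79 for the lagging-strand genes. The highest range was smaller for the lagging-strand genes (0.84) than for the helicase genes (0.99). Mcm2 to Mcm7, which form the ring that unwinds DNA, and Mcm10, which helps to activate it, were detected in 106 of 106 cells. Their group means spanned 0.45 (Mcm6) to 0.99 (Mcm10) log2 units. With the probe sets used, none of the 7 differed by 1 unit in any of the 13 comparisons. A second Mcm4 probe set, detected in 106 of 106 cells, did so once. It averaged 9.99 in EHF PGCs and 11.12 in EHF Blimp1+ Hoxb1+ cells. Mcm7 averaged 12.68 ± 0.17 in PS epiblast (SD, n = 8), 12.39 ± 0.15 in LS/0B precursors (n = 17) and 12.45 ± 0.19 in E/MB PGCs (n = 8), with 12.26 ± 0.21 in E/MB knockout cells (n = 12) and 12.15 ± 0.19 in mesoderm (n = 10). Pcna, the sliding clamp that holds polymerases on DNA, had the smallest range of the 44 genes (0.41). Its group means lay between 12.17 (E/MB PGCs) and 12.58 (LS/0B precursors), and its single cells between 11.25 and 13.07. The mean over all 44 genes was lower in E/MB and EHF PGCs than in PS epiblast, and higher again at E8.25. It was 10.12 ± 0.28 in PS epiblast, 9.91 ± 0.12 at E/MS, 9.89 ± 0.23 at LS/0B, 9.68 ± 0.31 at E/MB, 9.66 ± 0.12 at EHF and 10.002 ± 0.33 at E8.25. The median signal of broadly detected genes averaged 8.91 in PS epiblast and 8.90 in EHF PGCs.

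**Figure D2:**
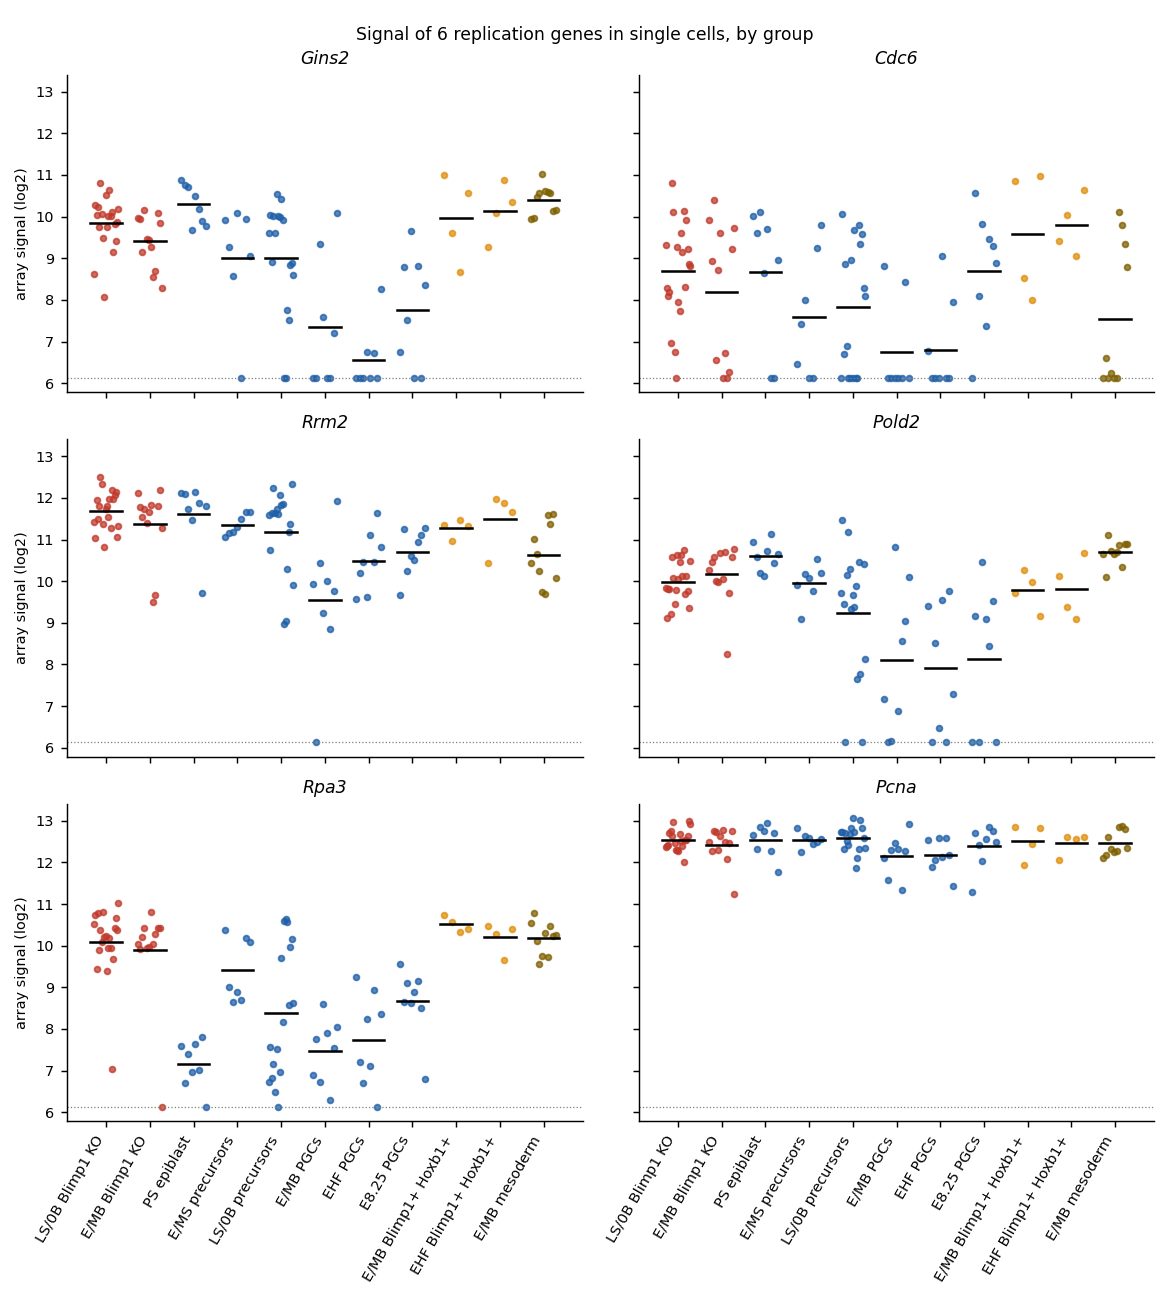
Each panel shows log2 array signal of 1 gene in single cells (points) of the 11 groups, with black bars at the group means and a dotted line at the floor. E/MB and EHF PGCs lie below PS epiblast in mean Gins2, Cdc6, Rrm2 and Pold2, Rpa3 has another order of groups, and Pcna lies between 11.25 and 13.07 in every cell.

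Gins2, a subunit of the GINS complex that joins the helicase at fork assembly, had the widest range of all. Its lowest, median and highest signals were 9.69, 10.34 and 10.89 in PS epiblast, 6.13, 9.28 and 10.10 at E/MS, 6.13, 9.60 and 10.55 at LS/0B, 6.13, 6.67 and 10.09 in E/MB PGCs, 6.13, 6.13 and 8.25 in EHF PGCs and 6.13, 7.94 and 9.65 in E8.25 PGCs. Every epiblast cell was above every E8.25 PGC, while each of the 3 PGC stages held cells at the floor. In E/MB knockout cells the signals were 8.29, 9.46 and 10.16, and in LS/0B knockout cells 8.07, 10.01 and 10.81. The 4 Blimp1+ Hoxb1+ cells had 10.995, 9.62, 8.66 and 10.57 at E/MB and 9.28, 10.08, 10.87 and 10.35 at EHF, and mesoderm cells had 9.94, 10.52 and 11.01. No knockout, Blimp1+ Hoxb1+ or mesoderm cell was at the floor. A second Gins2 probe set gave the same order of group means, with 6.99 in E/MB PGCs, 6.37 in EHF PGCs and 9.84 in PS epiblast. The other GINS genes did not share this pattern. Gins1 spanned 0.76 and Gins4 0.72 log2 units of group means, and Gins3 was lowest in E/MB Blimp1+ Hoxb1+ cells (6.44) and highest in EHF Blimp1+ Hoxb1+ cells (8.37).

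Cdc6, the ATPase that brings the helicase to the origin, was detected in 6 of 8 PS epiblast cells, 4 of 7 E/MS precursors, 10 of 17 LS/0B precursors, 2 of 8 E/MB PGCs, 3 of 8 EHF PGCs and 7 of 8 E8.25 PGCs. Group means in the same order were 8.66 ± 1.64, 7.60 ± 1.49, 7.83 ± 1.57, 6.76 ± 1.16, 6.80 ± 1.11 and 8.70 ± 1.44. Thus E8.25 PGCs were back near the epiblast level in Cdc6 but not in Gins2. Cdc6 was detected in 18 of 20 LS/0B and 7 of 12 E/MB knockout cells, in every Blimp1+ Hoxb1+ cell and in 4 of 10 mesoderm cells. The rest of the licensing genes moved less. Cdt1, the partner of Cdc6 in helicase loading, and Gmnn, which encodes the Cdt1 inhibitor geminin, were detected in all 106 cells, and Cdt1 was lowest in LS/0B precursors (10.38 ± 1.18) and highest in E/MB PGCs (11.51 ± 0.31). Among the origin recognition complex genes, Orc1 ran between 7.26 in EHF PGCs and 8.98 in PS epiblast, and Orc2 between 7.45 in mesoderm and 9.48 at E/MS. With the probe sets used, Orc4 (0.87) and Orc6 (0.95) had the smallest ranges of group means. Another Orc4 probe set, detected in 43 of 106 cells, had a wider range, with 6.39 in EHF and 8.77 in E8.25 PGCs.

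Rrm2, the S-phase subunit of ribonucleotide reductase, which makes the deoxyribonucleotides, was detected in 105 of 106 cells. It averaged 11.62 ± 0.80 in PS epiblast, 11.36 ± 0.25 at E/MS, 11.18 ± 1.04 at LS/0B, 9.54 ± 1.65 in E/MB PGCs, 10.48 ± 0.71 in EHF PGCs and 10.70 ± 0.56 in E8.25 PGCs. The 8 E/MB PGCs had 9.94, 6.13, 10.44, 9.23, 10.003, 8.85, 9.76 and 11.93, so that 1 cell was at the floor and 1 was at the epiblast level. Knockout cells averaged 11.69 ± 0.46 at LS/0B and 11.37 ± 0.88 at E/MB. Its partner Rrm1 spanned 0.70 log2 units over all groups, between 10.65 in EHF PGCs and 11.36 at E/MS. Of the 2 other probe sets of Rrm2, the group means correlated with those of the one used at r = 0.98 and r = 0.80 over 11 groups.

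Pold2, the second subunit of DNA polymerase delta, averaged 10.60 ± 0.35 in PS epiblast, 9.96 ± 0.45 at E/MS, 9.25 ± 1.57 at LS/0B, 8.11 ± 1.79 in E/MB PGCs, 7.91 ± 1.58 in EHF PGCs and 8.13 ± 1.75 in E8.25 PGCs. Its median over cells was 7.87, 7.90 and 8.76 at the 3 PGC stages, with a lowest cell at the floor in each. It was 10.17 ± 0.69 in E/MB knockout cells, 9.78 ± 0.47 and 9.82 ± 0.72 in the E/MB and EHF Blimp1+ Hoxb1+ cells and 10.69 ± 0.29 in mesoderm. The catalytic subunit, Pold1, had another order of groups: it averaged 10.46 ± 0.55 in E/MB PGCs and 10.75 ± 0.44 in E8.25 PGCs, and was lowest in E/MB Blimp1+ Hoxb1+ cells (8.77 ± 0.82). Pola1, the catalytic subunit of the primase-associated polymerase alpha, had its lowest means in E/MB Blimp1+ Hoxb1+ cells (7.23 ± 1.35) and mesoderm (7.32 ± 0.79) and its highest in PS epiblast (9.45 ± 0.73). Prim1, the small primase subunit, spanned 0.87. Rfc4, a subunit of the clamp loader, averaged 8.48 ± 1.68 in mesoderm and at least 9.63 in every other group, and it was undetected in 3 of the 10 mesoderm cells. Rfc2 spanned 0.51.

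Rpa3, the smallest subunit of the complex that coats single-stranded DNA, had a different order of groups. It averaged 7.16 ± 0.56 in PS epiblast, 9.41 ± 0.77 at E/MS, 8.38 ± 1.60 at LS/0B, 7.47 ± 0.77 in E/MB PGCs, 7.74 ± 1.12 in EHF PGCs and 8.66 ± 0.83 in E8.25 PGCs. It was between 9.89 and 10.51 in both knockout groups, both Blimp1+ Hoxb1+ groups and mesoderm. Over all 106 cells its signal correlated with that of Ppp2cb at r = 0.74, and at r = 0.57 within the 56 wild-type lineage cells and r = 0.53 within the other 50. The lowest knockout cells in Rpa3, LS/0B replicate 15 (7.03) and E/MB replicate 12 (6.13), were also at or near the floor in Ppp2cb (6.13 and 6.24). In E/MB knockout replicate 12, 36 of the 44 genes were detected, the fewest of its group. Other cells at the Ppp2cb floor had high Rpa3, among them mesoderm replicates 5 (9.75) and 6 (10.31) and E/MS replicate 6 (10.20). For Gins2 the corresponding correlations were 0.36, -0.04 and -0.20, and for Pold2 they were 0.33, 0.10 and -0.13. The part of the array sets in the Rpa3 values was not tested. Rpa1 and Rpa2, the other subunits, spanned 1.12 and 1.03 log2 units.

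**Figure D3:**
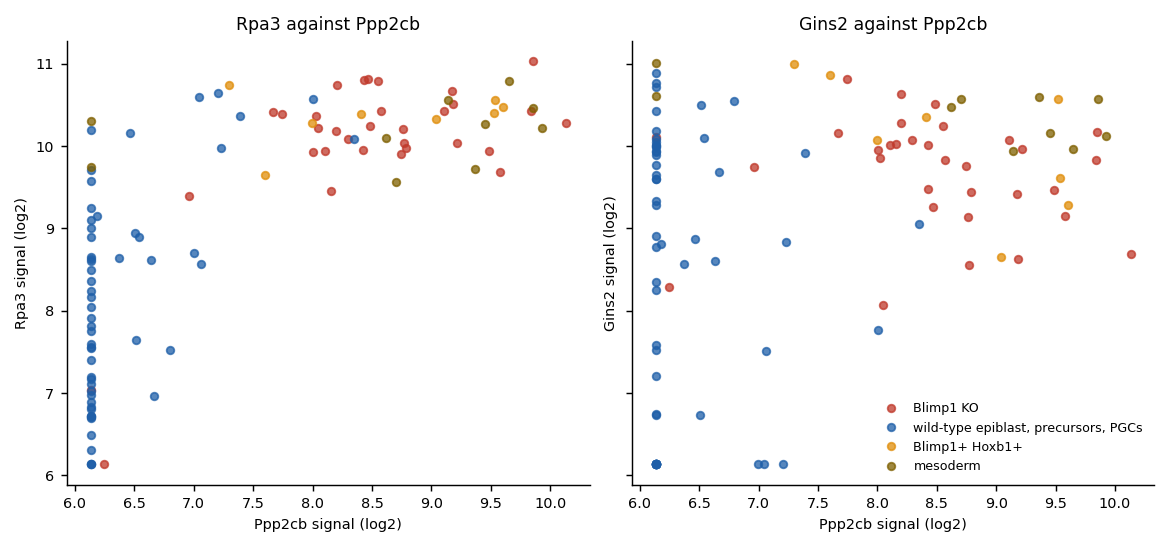
Each point is 1 of 106 cells, with the log2 signal of Ppp2cb on the horizontal axis and that of Rpa3 (left) or Gins2 (right) on the vertical axis, coloured by kind of cell. Rpa3 is higher where Ppp2cb is higher (r = 0.74), while Gins2 is spread over its whole range among wild-type cells with Ppp2cb at the floor.

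Compared with the start of the series, E8.25 PGCs had 1 gene higher by at least 1 log2 unit than PS epiblast and 3 lower, where 4.9% and 5.12% of all 18193 genes were that much higher or lower. Among broadly detected genes, as all 44 are, these shares were 8.88% and 9.97%. In every comparison below, too, such shares were larger over broadly detected genes than over all genes. Gins2 was lower by 2.54 (7.77 ± 1.33 in E8.25 PGCs, 10.30 ± 0.48 in PS epiblast; n = 8 each) and did not overlap between the groups, as was the case for 1.28% of all genes. Pold2 was lower by 2.47 (8.13 ± 1.75, against 10.60 ± 0.35) and Rfc3, a clamp loader subunit, by 1.28 (8.27 ± 1.01, against 9.54 ± 0.59). Rpa3 was higher by 1.503. Without E8.25 replicate 7 there were 2 genes higher and 4 lower, and without replicate 8 there were 5 lower. The median difference over the 44 genes was -0.05, and over broadly detected genes -0.02. All epiblast cells had Xist and no E8.25 PGC did, so sex moved with this comparison, and its part was not tested.

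Between neighbouring stages the counts were small. E/MS precursors, set against PS epiblast, had 1 gene higher (2.67% of all genes) and 4 lower (2.94%), with a median of -0.26 over the 44 genes and -0.04 over broadly detected genes. Rpa3 was higher by 2.25, without overlap of the cells, as was the case for 0.203% of all genes. Probe sets that mark the array sets were higher at E/MS too: Naa20 was detected in 6 of 7 E/MS cells (mean 7.52) and 3 of 8 PS cells (6.77), and Ppp2cb averaged 6.85 at E/MS and 6.25 in PS cells. Xist was detected in 0 of 7 E/MS and 8 of 8 PS cells, so sex and stage cannot be told apart in this comparison. Pola2, the regulatory subunit of polymerase alpha, averaged 8.19 ± 1.59 at E/MS and 9.72 ± 0.70 in epiblast, a difference of -1.54, and Gins2 differed by -1.30, which became -0.82 without E/MS replicate 5, the only E/MS cell at the floor. Cdc6 (-1.07) and Orc1 (-1.03) passed 1 unit narrowly and came to -0.82 without E/MS replicate 4 or 5 and to -0.73 without E/MS replicate 6. The number lower was 2 without PS replicate 2 or 3 or E/MS replicate 1, and 1 (with 2 higher) without E/MS replicate 5. LS/0B precursors, set against E/MS precursors, had 1 gene higher (1.48%) and 2 lower (1.47%): Pola2 by 1.34, Pole2, the second subunit of polymerase epsilon, by -1.13, and Rpa3 by -1.03. All 3 came under 1 in size when some single cell was left out. Pola2 came just under the limit without E/MS replicate 3, and Pole2 to -0.93 without E/MS replicate 6. Rpa3 came to between -0.88 and -0.98 without any of LS/0B replicates 1 to 8 or E/MS replicates 1, 6 and 7, and to -2.35 without the Xist cells.

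E/MB PGCs, set against LS/0B precursors, had 1 gene higher (2.96% of all genes) and 5 lower (2.66%). Gins2 was lower by 1.65 (7.35 ± 1.58 in E/MB PGCs, n = 8; 8.996 ± 1.38 in LS/0B precursors, n = 17) and Rrm2 by 1.64 (9.54 ± 1.65, against 11.18 ± 1.04). Cdt1 differed by 1.13 (0.96 without LS/0B replicate 18), Pold2 by -1.14, Pola2 by -1.02 and Cdc6 by -1.07. Without E/MB replicate 2, in which 34 of the 44 genes were detected and Rrm2, Rpa1, Gins2, Pola2, Cdc6 and Pold2 were at the floor, 2 genes remained lower by 1 unit, and Rrm2 differed by -1.16. The number lower was also 2 without LS/0B replicate 2, and 3 without LS/0B replicate 16 or E/MB replicate 3 or 5. Pold2 came to -0.85 without E/MB replicate 2, Pola2 to -0.69 without E/MB replicate 1 or 2, and Cdc6 to -0.93 without LS/0B replicate 2. The LS/0B precursors were a mixture in this respect. Their 8 cells with Xist had lower Gins2 (8.04 ± 1.46) than their 9 cells without (9.85 ± 0.45), lower Rrm2 (10.62 ± 1.26, against 11.68 ± 0.41) and lower Pole2 (7.53 ± 1.53, against 8.57 ± 0.95). They had higher Rpa3 (9.86 ± 0.84, against 7.06 ± 0.62), higher Dbf4 (10.95 ± 0.33, against 9.89 ± 0.82) and higher Ppp2cb (6.97 ± 0.57, against 6.21 ± 0.22). Markers of cell state moved with this split as well: Hoxb1 was detected in 2 of the 8 cells with Xist (mean 7.13) and 9 of the 9 without (9.61), and Dppa3 in 5 of 8 (8.98) and 3 of 9 (6.97). Sex, array set and cell state cannot be told apart there. Set against the LS/0B cells without Xist alone, E/MB PGCs, in which Xist was found in 0 of 8 cells, differed by -2.50 in Gins2, -2.14 in Rrm2 and -1.57 in Pold2.

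EHF PGCs, set against E/MB PGCs, had 1 gene higher (1.92% of all genes) and 0 lower (2.25%). That gene was Pole, the catalytic subunit of polymerase epsilon, with 10.20 ± 1.32 in EHF and 9.08 ± 1.61 in E/MB PGCs (n = 8 each). Its difference of 1.12 came to 0.75 without E/MB replicate 2, 0.78 without E/MB replicate 3 and 0.96 without EHF replicate 6. The number higher was 2 without E/MB replicate 1, 5 or 8 or EHF replicate 1 or 4, and 1 was lower without E/MB replicate 4 or EHF replicate 8. Xist was detected in 5 of 8 EHF and 0 of 8 E/MB PGCs, and without the Xist cells Pole differed by 1.46. E8.25 PGCs, set against EHF PGCs, had 5 genes higher (1.71%) and 0 lower (1.53%). Cdc6 was higher by 1.90 (8.70 ± 1.44 at E8.25, 6.80 ± 1.11 at EHF), Orc1 by 1.36, Pola2 by 1.33, Gins2 by 1.22 and Pole2 by 1.18. The last 2 came to 0.95 without E8.25 replicate 4 and to 0.96 without EHF replicate 5. In all, 37 of the 44 genes were above 0 here, with a median of 0.25, against 0.02 over broadly detected genes. The mean over the 44 genes was 9.35 to 10.43 in E8.25 PGCs and 9.46 to 9.77 in EHF PGCs. Only E8.25 replicate 1 (9.35) lay below the EHF cells. Every other E8.25 cell, the lowest of them replicate 8 at 9.87, lay above all EHF cells. Xist was found in 0 of 8 E8.25 and 5 of 8 EHF PGCs, and without the Xist cells Pola2 differed by 0.58.

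E/MB knockout cells, set against E/MB PGCs, had 5 genes higher by at least 1 log2 unit (4% of all genes) and 0 lower (3.61%). These were Rpa3 by 2.41, Gins2 by 2.06, Pold2 by 2.06, Rrm2 by 1.84 and Cdc6 by 1.44. Of broadly detected genes, 8.06% were that much higher and 6.23% lower. Gins2 averaged 9.40 ± 0.63 in knockout cells (n = 12) and 7.35 ± 1.58 in PGCs (n = 8), and it was detected in 12 of 12 knockout cells (exact Clopper-Pearson 95% interval 73.5 to 100%) and 4 of 8 PGCs (15.7 to 84.3%). Pold2 averaged 10.17 ± 0.69 in knockout cells and 8.11 ± 1.79 in PGCs, and Rrm2 11.37 ± 0.88 and 9.54 ± 1.65. Cells of the groups overlapped in all 44 genes, and 0.572% of all genes did not overlap. PGC replicate 8 had 10.09 in Gins2, 11.93 in Rrm2 and 10.10 in Pold2, within the range of the knockout cells. The median over the 44 genes was -0.05, and for 25 of 44 the difference was below 0. Each of the 5 stayed above 1 when any 1 cell was left out. The groups also differed in the probe sets that mark the array sets. Ppp2cb was detected in 11 of 12 knockout cells and 0 of 8 PGCs, and Abca4 in 1 of 12 and 8 of 8. Cell identity differed too. Of 11 mesoderm markers 8 were higher and 0 lower in the knockout cells (median 1.93). Of 10 germ cell markers 0 were higher and 9 lower (median -3.11). The part of array set and cell identity in these values was not tested.

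At LS/0B, where the wild-type cells are precursors, the knockout had 2 genes higher (1.06% of all genes) and 0 lower (0.39%). Rpa3 was higher by 1.72 (10.09 ± 0.85 in knockout cells, n = 20; 8.38 ± 1.60 in precursors, n = 17) and Pole2 by 1.11 (9.19 ± 0.83, against 8.08 ± 1.33), with 0.99 for Pole2 without LS/0B precursor replicate 19, 20, 21 or 24. Against the precursors without Xist, Pole2 differed by 0.62 and Rpa3 by 3.03. Gins2 was 9.84 ± 0.65 in knockout cells and 8.996 ± 1.38 in precursors, and Rrm2 was 11.69 ± 0.46 and 11.18 ± 1.04, both short of 1 unit. In the 9 precursors without Xist, the sex marker also missing from all 20 knockout cells, Gins2 averaged 9.85 and Rrm2 11.68, at the level of the knockout. Between knockout stages, E/MB against LS/0B, 0 genes were higher (0.544%) and 0 lower (0.676%), while 32 of 44 were below 0 with a median of -0.14. The number lower was 1 without LS/0B replicate 4 or E/MB replicate 2, 4, 5, 7, 8 or 11. Gins2 averaged 9.40 in the E/MB and 9.84 in the LS/0B knockout cells. Across the same stages, wild-type E/MB PGCs and LS/0B precursors differed in Gins2 by -1.65. The difference between these changes was not tested.

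**Figure D4:**
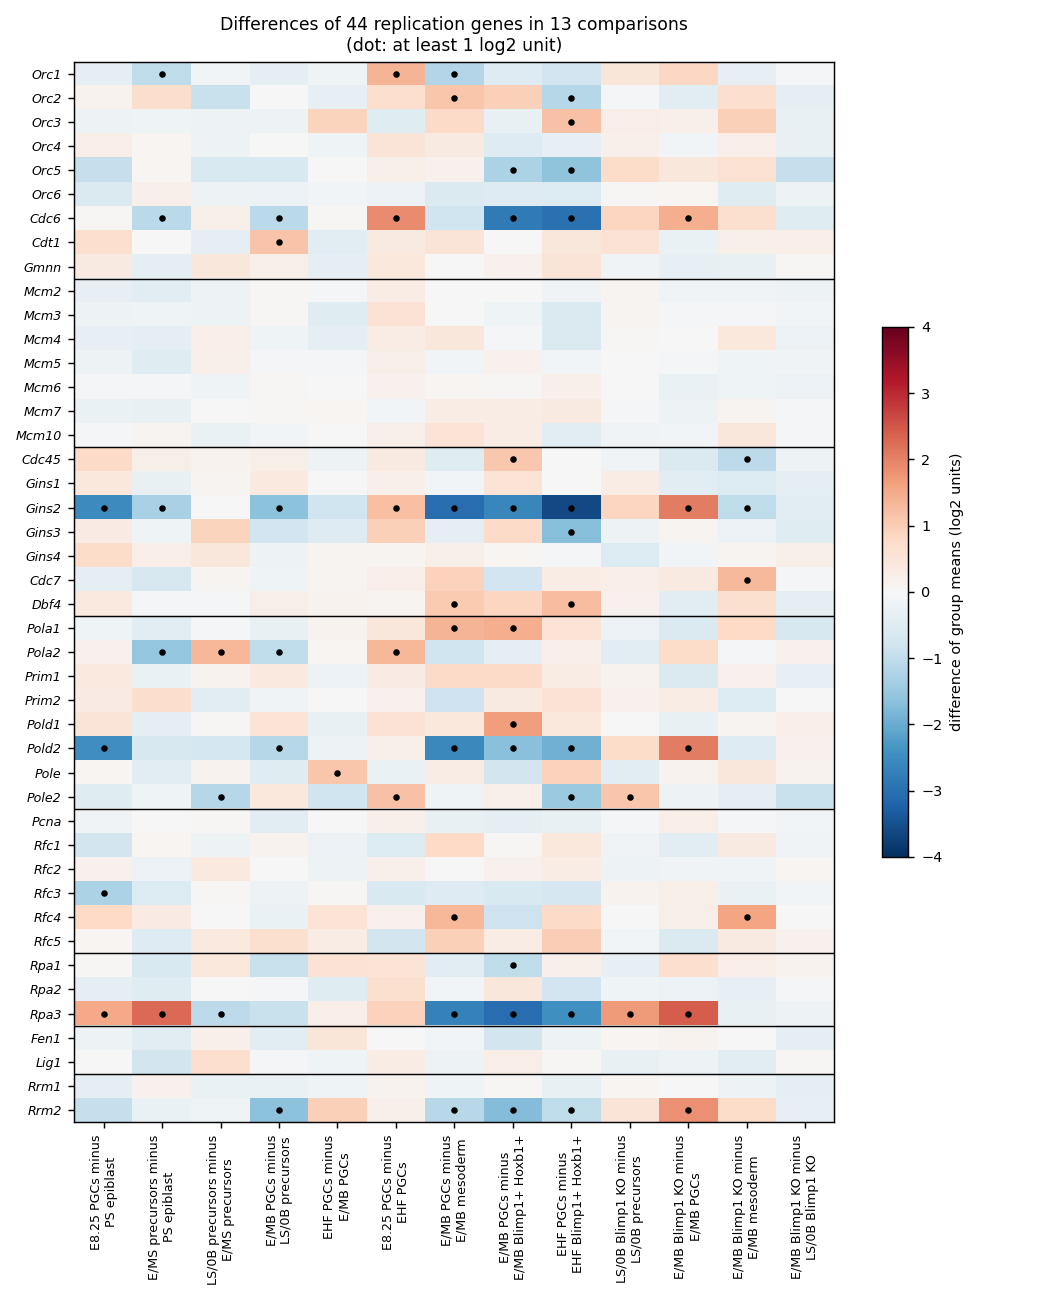
Each row is 1 of the 44 replication genes, grouped by role, each column 1 of the 13 comparisons, and colour gives the difference of group means (log2 units, first-named group minus the other), with dots at 1 or more in size. The block of Mcm genes has no dot, and Gins2 has one in 9 of the 13 columns.

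The E/MB PGCs were also set against their neighbours of the same stage. Against mesoderm, 4 genes were higher (8.43% of all genes) and 5 lower (3.62%). Gins2 was lower by 3.06 (7.35 ± 1.58 in PGCs, 10.40 ± 0.34 in mesoderm). Rpa3 differed by -2.70 without overlap, as was the case for 1.72% of all genes, and Pold2 by -2.58. Higher in PGCs were Pola1 by 1.36 and Rfc4 by 1.34. The array medians of mesoderm replicates 4, 5 and 6 (8.52, 8.38 and 8.20) were the lowest of all 106 cells, and without these 3 cells Rfc4 differed by 0.33, Orc2 by 0.55 and Dbf4 by 0.45 in place of 1.34, 1.12 and 1.05. Rrm2 differed by -1.10, and by -0.62 without PGC replicate 2, while Orc1 differed by -1.16, and by -0.97 without PGC replicate 1 or 2. Leaving out mesoderm replicate 4, 5 or 6 alone left 2 genes higher, and leaving out PGC replicate 2 left 3 lower. E/MB knockout cells, set against mesoderm, had 2 genes higher (6.89%) and 2 lower (1.29%), where 15.5% and 2.4% of broadly detected genes were. Rfc4 was higher by 1.58 and Cdc7, the kinase that fires origins, by 1.28, but without mesoderm replicates 4 to 6 these were 0.57 and 0.69. Cdc45 (-1.05) and Gins2 (-1.0007) stood at the edge of 1, and without knockout replicate 12 they came to -0.86 and -0.90. Another 6 knockout cells and 7 mesoderm cells also moved one of these counts when left out.

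Against E/MB Blimp1+ Hoxb1+ cells, E/MB PGCs had 3 genes higher (5.21% of all genes) and 7 lower (5.52%). Rpa3 was lower by 3.04, Cdc6 by 2.83 (6.76 ± 1.16 in PGCs, n = 8; 9.59 ± 1.54 in Blimp1+ Hoxb1+ cells, n = 4), Gins2 by 2.61 and Rrm2 by 1.74. Pold1 was higher by 1.68 and did not overlap, like Rpa3, as was the case for 2.71% of all genes. Pold2 was lower by 1.67 and Pola1 higher by 1.45. Orc5, an origin recognition subunit, differed by -1.26 (-0.96 without Blimp1+ Hoxb1+ replicate 1), Rpa1 by -1.02 (-0.41 without PGC replicate 2) and Cdc45 by 1.09 (0.70 without Blimp1+ Hoxb1+ replicate 2). The number of genes higher was 5 without PGC replicate 3 or without Blimp1+ Hoxb1+ replicate 1, 3 or 4. Against EHF Blimp1+ Hoxb1+ cells, EHF PGCs had 2 genes higher (6.94%) and 9 lower (5.54%). Gins2 was lower by 3.60 (6.55 ± 0.74 in PGCs, 10.14 ± 0.66 in Blimp1+ Hoxb1+ cells), Cdc6 by 2.99 (6.80 ± 1.11, against 9.79 ± 0.70), and differences were -2.46 for Rpa3 and -1.91 for Pold2. Gins3 differed by -1.69, and by -1.11 without EHF Blimp1+ Hoxb1+ replicate 7, and Orc5 was lower by 1.61. Single Blimp1+ Hoxb1+ cells carried 5 others under 1 in size: Orc3 (1.17) came to 0.46 without replicate 7, Dbf4 (1.23) to 0.77, Pole2 (-1.49) to -0.96 and Orc2 (-1.13) to -0.95 without replicate 8, and Rrm2 (-1.01) to -0.85 without replicate 6. Gins2, Cdc6, Rpa3, Mcm7 and Rfc5 did not overlap between these groups, as was the case for 3.29% of all genes. Mcm7 differed by only 0.37 there (12.52 ± 0.12 in EHF PGCs, 12.16 ± 0.20 in Blimp1+ Hoxb1+ cells). The number of genes higher was 1 without Blimp1+ Hoxb1+ replicate 7 and 5 without replicate 5. Xist was detected in 0 of 8 E/MB PGCs and 1 of 4 E/MB Blimp1+ Hoxb1+ cells, and in 5 of 8 EHF PGCs and 1 of 4 EHF Blimp1+ Hoxb1+ cells. Without the Xist cells the number of genes higher was 5 at E/MB and 8 at EHF. The PGC and Blimp1+ Hoxb1+ arrays also differed in the probe sets that mark the array sets.

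Of 35 other replication genes, 4 were higher and 3 lower in E/MB knockout cells than in E/MB PGCs, where 4% and 3.61% of all genes were. Uhrf1, which brings the maintenance DNA methyltransferase to newly copied DNA, averaged 10.04 in knockout cells and 6.76 in PGCs, and Pclaf, a partner of PCNA, 10.67 and 9.17. Timeless, a fork protection gene, was higher by 1.20 and Rnaseh2a, a subunit of the enzyme that removes ribonucleotides from DNA, lower by 1.37. Along the lineage Uhrf1 averaged 10.01 in PS epiblast, 9.60 at E/MS, 9.84 at LS/0B, 6.76 at E/MB, 6.66 at EHF and 7.16 at E8.25. Of 14 nucleotide supply genes, 2 were higher (4% of all genes) and 0 lower (3.61%) in E/MB knockout cells than in E/MB PGCs: Dck, the deoxycytidine kinase, by 1.98 and Tk1, the S-phase thymidine kinase, by 1.49. E/MB PGCs minus LS/0B precursors gave -1.12 for Dck and -1.03 for Tk1. Dck did not stay low: it averaged 8.89 in EHF PGCs, 1.63 above E/MB PGCs, and 7.75 in E8.25 PGCs, a difference of -1.14 to EHF PGCs.

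Of 30 genes controlling the passage into S phase, 6 were higher (4% of all genes) and 1 lower (3.61%) in E/MB knockout cells than in E/MB PGCs. In E/MB PGCs, set against LS/0B precursors, 1 was higher (2.96%) and 4 lower (2.66%). Myc, a transcription factor that promotes growth and S-phase entry, was detected in 11 of 12 E/MB knockout cells and 0 of 8 E/MB PGCs, at least 4.96-fold higher. E2f3, an E2F family activator, was detected in 11 of 12 and 0 of 8, at least 3.30-fold higher. Cdk6 was higher by 1.97 and Cdk2, the kinase partner of cyclin E, by 1.85. Ccne1, which encodes cyclin E1, averaged 11.16 in PS epiblast, 10.56 at E/MS, 9.44 at LS/0B, 8.53 at E/MB, 8.08 at EHF and 8.50 at E8.25. Cdkn1a, which encodes the inhibitor p21, averaged 8.92 in EHF PGCs (detected in 6 of 8) and was detected in 0 of 4 EHF Blimp1+ Hoxb1+ cells, at least 3.59-fold higher in the PGCs.

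With group means removed, the mean of the 44 genes and the mean of 23 G2 and mitosis genes correlated at r = -0.33 over the 106 cells. Within single groups r was -0.45 in PS epiblast, -0.72 at E/MS, -0.34 at LS/0B, -0.68 in E/MB PGCs, 0.17 in EHF PGCs and -0.70 in E8.25 PGCs, with -0.48 and 0.09 in LS/0B and E/MB knockout cells and 0.01 in mesoderm. The points share an array each, and the array median correlated with the replication mean at 0.30 and with the G2 and mitosis mean at 0.53. Among single genes, Gins2 (r = -0.49), Pcna (-0.47), Rrm2 (-0.46) and Mcm4 (-0.45) were lower in cells with more G2 and mitosis signal. Dbf4, the regulatory subunit of the Cdc7 kinase, ran the other way at 0.54. With group means removed, Dbf4 also correlated with the array median (r = 0.49) and with Ppp2cb (r = 0.50). With the array median, Gins2 had r = -0.16, Pcna 0.05, Rrm2 -0.12 and Mcm4 0.02. The part of array signal and array set in the Dbf4 value was not tested. Over 946 pairs of the 44 genes the median r was 0.10, against 0.01 over pairs of all broadly detected genes. Mcm4 with Pcna (0.58), Mcm3 with Mcm4 (0.56), Mcm2 with Mcm4 (0.55) and Gins2 with Rrm2 (0.52) were the closest pairs. E/MB PGC replicate 8, the PGC of its stage with the most Gins2 and Rrm2, had the lowest G2 and mitosis mean of that group, 8.64, against a group median of 10.44. E8.25 PGC replicate 2 had the highest replication mean of its group (10.43) and the lowest G2 and mitosis mean (8.88). By groups, the G2 and mitosis mean was 10.18 in LS/0B and 10.35 in E/MB knockout cells, 9.55 and 9.26 in E/MB and EHF Blimp1+ Hoxb1+ cells and 9.72 in mesoderm. Along the lineage it was 9.77 in PS epiblast, 10.26 at E/MS, 10.003 at LS/0B, 10.28 in E/MB PGCs, 10.51 in EHF PGCs and 10.35 in E8.25 PGCs, so that PGCs, E/MS precursors and knockout cells lay close together.

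**Figure D5:**
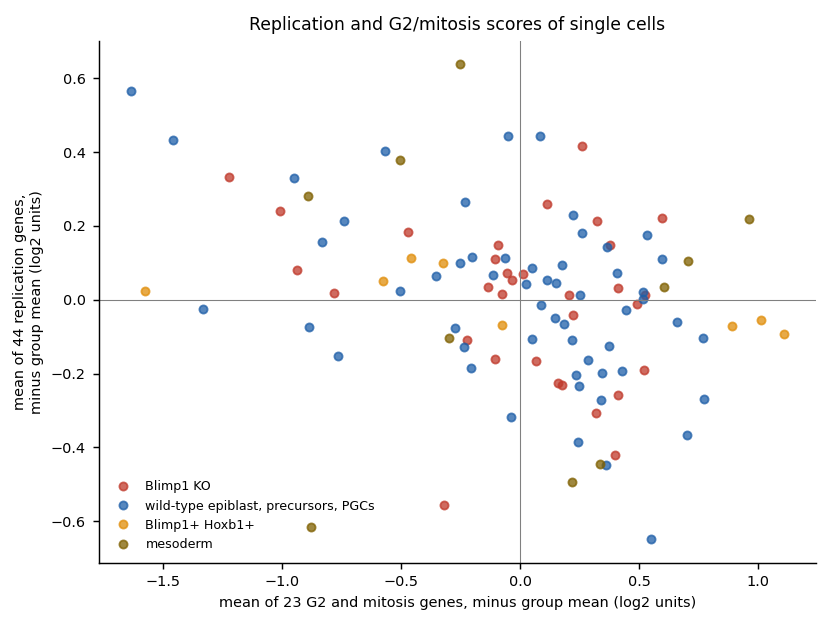
Each point is 1 of 106 cells, with the mean log2 signal of 23 G2 and mitosis genes (horizontal) and of the 44 replication genes (vertical), both minus the mean of the cell's group, coloured by kind of cell. The cloud slopes downward (r = -0.33).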

How the data were processed

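The values are linear array intensity for each probe set in each cell, which the authors deposited after MAS5, per the submitters' processing notes. The sources used here give neither its version nor its scaling. Each array held amplified cDNA of 1 cell, per the labels' protocols. Absence of a transcript cannot be read from a low value, and precision is limited by the number of arrays. Of 45101 probe sets, 34945 carried 1 gene symbol in the platform annotation, 932 several, 9160 none and 64 were controls. For each of 18193 genes the probe set with the highest mean was used. Values under 70.2 (6.13 in log2) were raised to it, the median over cells of the 90th percentile of 126 background probe sets (olfactory, vomeronasal, taste receptor and hair keratin-associated genes). The detection limit, their 95th percentile in each cell, was 82.8 to 166 (median 120). In the files 15.3% of values stood at 1 and 1 was missing.

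No embryo is named, so each group was 1 sample, and differences of group means carry no test. Intervals cover counting error only. Genes were named by a rule: the 10 replication genes with the widest range of group means, and in each comparison the 6 largest differences of at least 1 log2 unit detected in at least 75% of cells of the higher group, or the 4 largest of each other list. Further replication genes were named to account for counts, and Ccne1 after its values were seen. Members and lists were chosen with earlier results of these data known. The step that takes differences was tested on simulated data, with shifts larger than 1 log2 unit put only into genes far above the floor. Differences in genes with cells at the floor were not covered by it. Alternatives were another floor or none, averaged probe sets, centred cells, a detection filter, and cells left out. Python 3.11.15, numpy 2.4.6, pandas 2.3.3 and matplotlib 3.10.9 were used. Chaf1a, Impdh2, Ccnb1, Nanos3 and T, which have no probe set with 1 symbol here, were not analysed.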

Additional observations from a re-analysis of the deposited data

Results flagged for a closer look

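In groups of 4 to 10 cells, a single cell was marked when its gap to the nearest other cell, divided by the range of the group, passed the 95% critical value of Dixon's test. Over the mean of all 44 genes and the 10 genes with the widest ranges, 88 groups were checked and 9 cells marked. For normally distributed values chance marks about 1 group in 20. Values here are cut at the floor, so that rate need not hold. None was marked for the mean of all 44 genes. Gins2 was at 6.13 in E/MS precursor replicate 5 (group median 9.28) and at 8.25 in EHF PGC replicate 8 (median 6.13). Rpa3 was at 6.80 in E8.25 PGC replicate 8 (median 8.77). Pola1 was at 6.13 in EHF Blimp1+ Hoxb1+ replicate 8 (median 8.90), Pold1 at 10.11 in EHF Blimp1+ Hoxb1+ replicate 7 (median 9.65) and Gins3 at 7.30 in E/MB Blimp1+ Hoxb1+ replicate 4 (median 6.16). Rfc4 was at 6.13 in E/MB PGC replicate 3 (median 10.23) and at 11.16 in EHF PGC replicate 6 (median 10.24). Rrm2 was at 9.72 in PS epiblast replicate 7 (median 11.84), a cell that was also at 6.13 in Cdc6.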

How the results depend on the processing

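Of the 65 differences of at least 1 log2 unit, 28 came under 1 when some single cell was left out, and all 65 kept their direction under every alternative that gave a value. At least 1 in size were still 64 of 65 with no floor, 53 with the floor at the 95th percentile of background, 42 with probe sets averaged, 62 with cells centred on their median, 31 of 38 without the cells with Xist, 6 of 13 without mesoderm replicates 4 to 6 and 9 of 11 without the 2 knockout cells low in Ppp2cb. The last 2 alternatives were chosen after seeing the data. Requiring detection in at least 50% of the cells of a group moved none of the counts by over 1.5 times. With no floor, the number of genes lower was 5 for E8.25 PGCs against PS epiblast, 5 (with 2 higher) for LS/0B against E/MS, 8 for E/MB PGCs against LS/0B, 2 (with 3 higher) for EHF against E/MB PGCs, 8 for E/MB PGCs against mesoderm, 11 for E/MB PGCs against Blimp1+ Hoxb1+ cells and 2 for E/MB against LS/0B knockout. The number higher was 8 for E8.25 against EHF PGCs, 4 for EHF PGCs against Blimp1+ Hoxb1+ cells (mean difference -0.48), 6 for the LS/0B knockout against precursors and 8 for the E/MB knockout against PGCs. With the higher floor, the number lower was 2 for E/MS against PS, 0 for LS/0B against E/MS, 3 for E/MB PGCs against LS/0B and 1 for the E/MB knockout against mesoderm, and 1 was higher in the LS/0B knockout. With probe sets averaged, 2 were lower for E/MS against PS, 0 higher and 1 lower for LS/0B against E/MS, 0 higher for E/MB PGCs against LS/0B, 2 higher for E8.25 against EHF PGCs, 1 higher for E/MB PGCs against mesoderm and against Blimp1+ Hoxb1+ cells, 0 higher for EHF PGCs against Blimp1+ Hoxb1+ cells, and 1 higher for the LS/0B knockout and for the E/MB knockout against mesoderm. With cells centred, 2 were higher and 8 lower for E/MB PGCs against mesoderm, and the mean difference of EHF PGCs against Blimp1+ Hoxb1+ cells was -0.44. Without the cells with Xist, 3 were lower for E/MB PGCs against LS/0B, 2 higher and 2 lower for EHF against E/MB PGCs, 1 lower for E8.25 against EHF PGCs, 5 higher for E/MB and 8 higher for EHF PGCs against Blimp1+ Hoxb1+ cells, and 1 higher in the LS/0B knockout. Without mesoderm replicates 4 to 6, 1 was higher for E/MB PGCs and 0 higher and 0 lower for the E/MB knockout against mesoderm, and without the knockout cells low in Ppp2cb 0 were lower for the E/MB knockout against mesoderm. Leaving out 1 cell gave 1 to 2 higher and 3 to 5 lower for E8.25 PGCs against PS, 1 to 2 and 1 to 4 for E/MS against PS, 1 to 2 and 0 to 2 for LS/0B against E/MS, 0 to 1 and 2 to 7 for E/MB PGCs against LS/0B, 0 to 2 and 0 to 1 for EHF against E/MB PGCs, and 2 to 6 and 3 to 7 for E/MB PGCs against mesoderm. It gave 2 to 5 higher for E/MB and 1 to 5 higher for EHF PGCs against Blimp1+ Hoxb1+ cells, 1 to 2 higher in the LS/0B knockout, 0 to 2 lower for the E/MB knockout against mesoderm and 0 to 1 lower for E/MB against LS/0B knockout. Averaging took in probe sets detected in hardly any cell, among them further ones of Pola1 and Pole2 (0 cells each) and Dbf4 (1 cell). With it, Dbf4 in E/MB PGCs against mesoderm went from 1.05 to 0.52. The cause of the shifts under these alternatives was not tested. No paired analysis was possible because replicate numbers name no shared embryo and no result comes from a test.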
